A study of Mus musculus with 207 samples.

Results

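The cells described here are the 138 islet cells of 3-month-old male mice whose group label is Young, out of 207 cells in the series. The other 69 cells came from male mice aged 26 months and enter no value below. Cells from islets, the clusters of hormone cells in the pancreas, were captured singly on a Fluidigm C1, an instrument whose microfluidic sites lyse each cell and amplify its cDNA. The cDNA was made with the SMARTer kit and turned into sequencing libraries with Nextera XT. The labels give sex and age, no strain, genotype or treatment, and no animal, so the 138 cells count as 1 sample: their values are described with the spread over cells, and no test between cells was made. Levels are TPM values, reads per transcript length scaled so that each cell sums to 1000000, so levels of different genes can be set side by side. No read totals accompany them, and the depth behind each value is unknown. Detection of a gene means a TPM of at least 1 in that cell.

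Beta cells make insulin, cut it out of proinsulin in secretory granules and release it when glucose rises. Mice have a pair of insulin genes, Ins1 and Ins2, and store insulin with the peptide amylin, encoded by Iapp. Because a very large share of their protein synthesis passes through the endoplasmic reticulum (ER), beta cells lean on the ER translocon, which carries new proteins into the ER, on ER chaperones, which fold them, and on stress responses that adjust both. Single beta cells are known to differ in such programs, and cell-to-cell variation can be read from genes that go up and down together over cells.

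All 138 cells carried the beta-cell genes. Ins2, Ins1, Iapp and Ucn3, a peptide hormone of mature beta cells, were detected in every cell, and Slc2a2, the glucose transporter of mouse beta cells, in 124 of 138 (89.9%, exact 95% interval 83.6 to 94.3%, covering counting of cells only). The 5 marker genes together held 158635 to 810794 TPM per cell, with a median of 622814. Markers of other islet cells ranged from undetected to common. At the low end, Ghrl, encoding the hormone ghrelin of epsilon cells, was detected in no cell, a count of 0 of 138 that allows up to 2.17% of cells with TPM 1 or above and sets no limit on cells that express it, and the delta-cell markers Ghsr, Lepr, Crhr2 and Nts were likewise detected in none. Transcripts of the other islet hormones were widespread, at levels far below insulin. Gcg, encoding glucagon, had a median of 57.8 TPM and was detected in 128 cells, Sst, encoding somatostatin, had a median of 27.2 TPM in 131 cells, and Ppy, encoding pancreatic polypeptide, 13.3 TPM in 133 cells. The highest single value of these 3 hormone genes was 770 TPM, for Sst, against a lowest Ins2 value of 138682 TPM. Their source was not tested. Of 10 alpha-cell markers, 9 were detected in at least 1 cell and 5 had a mean of 10 TPM or above. Their sum had a median of 1504 TPM, a highest value of 5437 TPM and was 1000 TPM or more in 101 cells. Ttr, a transthyretin gene that beta cells also express, had the mean of 910 TPM within it. Of 10 delta-cell markers 6 were detected and 3 had a mean of 10 TPM or above, with a median sum of 72.9 TPM, a highest sum of 2314 TPM and 2 cells at 1000 TPM or more. Of 7 markers of PP cells, which make pancreatic polypeptide, 4 were detected and all 4 had a mean of 10 TPM or above, with a median sum of 69.0 TPM, a highest sum of 2746 TPM and 5 cells at 1000 TPM or more. The detected markers were Ppy, Pyy, Id2 and Fxyd3. No Ppy value passed 770 TPM, so Ppy alone does not make up the highest sum.

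In 5 cells the markers of another cell type were high. Cells 18, 32, 49, 72 and 112 held between 7930 and 41904 TPM over 11 macrophage genes, of which 9 to 11 were detected in each, while no other cell passed 234 TPM. Lyz2, a macrophage lysozyme, reached 10608 TPM in cell 112, and Cd74, which serves antigen presentation, reached 26107 TPM in cell 72. The same 5 cells kept all 5 beta-cell markers, and insulin transcripts held 15.7% of their TPM in cell 72, 27.1% in cell 112 and up to 49.9% in the other 3, against a median of 54.8% in the remaining 133 cells. They are called macrophage-transcript cells below, and some results, not all, are given with and without them. The highest delta-cell sum, 2314 TPM, was among them, and the highest in the other 133 cells was 1180 TPM. Sums over the PP-cell markers, Id2 among them, averaged 1086 TPM in the 5 cells and 197 TPM in the other 133. The highest, 2746 TPM, was in the other 133. Alpha-cell sums went the other way, with means of 1235 and 1683 TPM. In cell 75 the markers of stellate cells and fibroblasts summed to 1403 TPM, of which Sparc, a matrix protein gene, held 1193 TPM. Only 4 of these 10 markers were detected in any cell and at most 3 in the same cell. Col1a1, Dcn, Lum, Rgs5, Pdgfra and Pdgfrb were detected in none. Acinar, endothelial and erythroid markers did not pass 47.3 TPM in any cell. Up to 6 of the 10 endothelial markers were still detected together, in a cell among numbers 1 to 39. Of 10 ductal markers, 6 were detected and 3 had a mean of 10 TPM or above. Their sum had a median of 59.6 TPM and a highest value of 1586 TPM, with 2 cells at 1000 TPM or more. Lymphocyte markers reached 207 TPM, in a macrophage-transcript cell. Markers of Schwann cells and neurons, which include the secretion gene Snap25, reached 1234 TPM, with 1 cell at 1000 TPM or more.

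The cells also fell into stretches of their numbers. Change points placed on the number of detected genes, 2 measures of mitochondrial transcripts and the level of 5 nuclear noncoding RNAs split the numbers into cells 1 to 39, 40 to 54, 55 to 86 and 87 to 138. Detected genes had medians of 3944, 2320, 4226 and 5105 in these stretches, with a range over all cells from 1604 to 6654 and a median of 4292. Malat1, an abundant nuclear noncoding RNA, averaged 213, 574, 4202 and 2633 TPM in the same order, and 72.8% of its variance lay between stretches. Malat1 is among the 5 noncoding RNAs used to place the change points and makes up most of their sum, so its steps are a description of how the stretches were drawn. The heat-shock gene Hspa1a averaged 61.9 TPM in cells 55 to 86, where 87.5% of cells had it, and no more than 1.67 TPM in any other stretch. Its neighbour Hspa1b, which has a near-identical sequence and may share its reads, averaged 55.3 TPM there and at most 0.95 TPM elsewhere. Dnajb1, a partner of these chaperones, followed with 116 TPM against 24.1 TPM or less. Iapp averaged 82650 and 86514 TPM in the outer stretches and 38554 and 42769 TPM in the inner ones. The labels give no chip, day or animal that would say what a stretch is, so cells, animals and chips cannot be told apart in these steps. Their means were therefore removed before any correlation was taken.

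**Figure D1:**
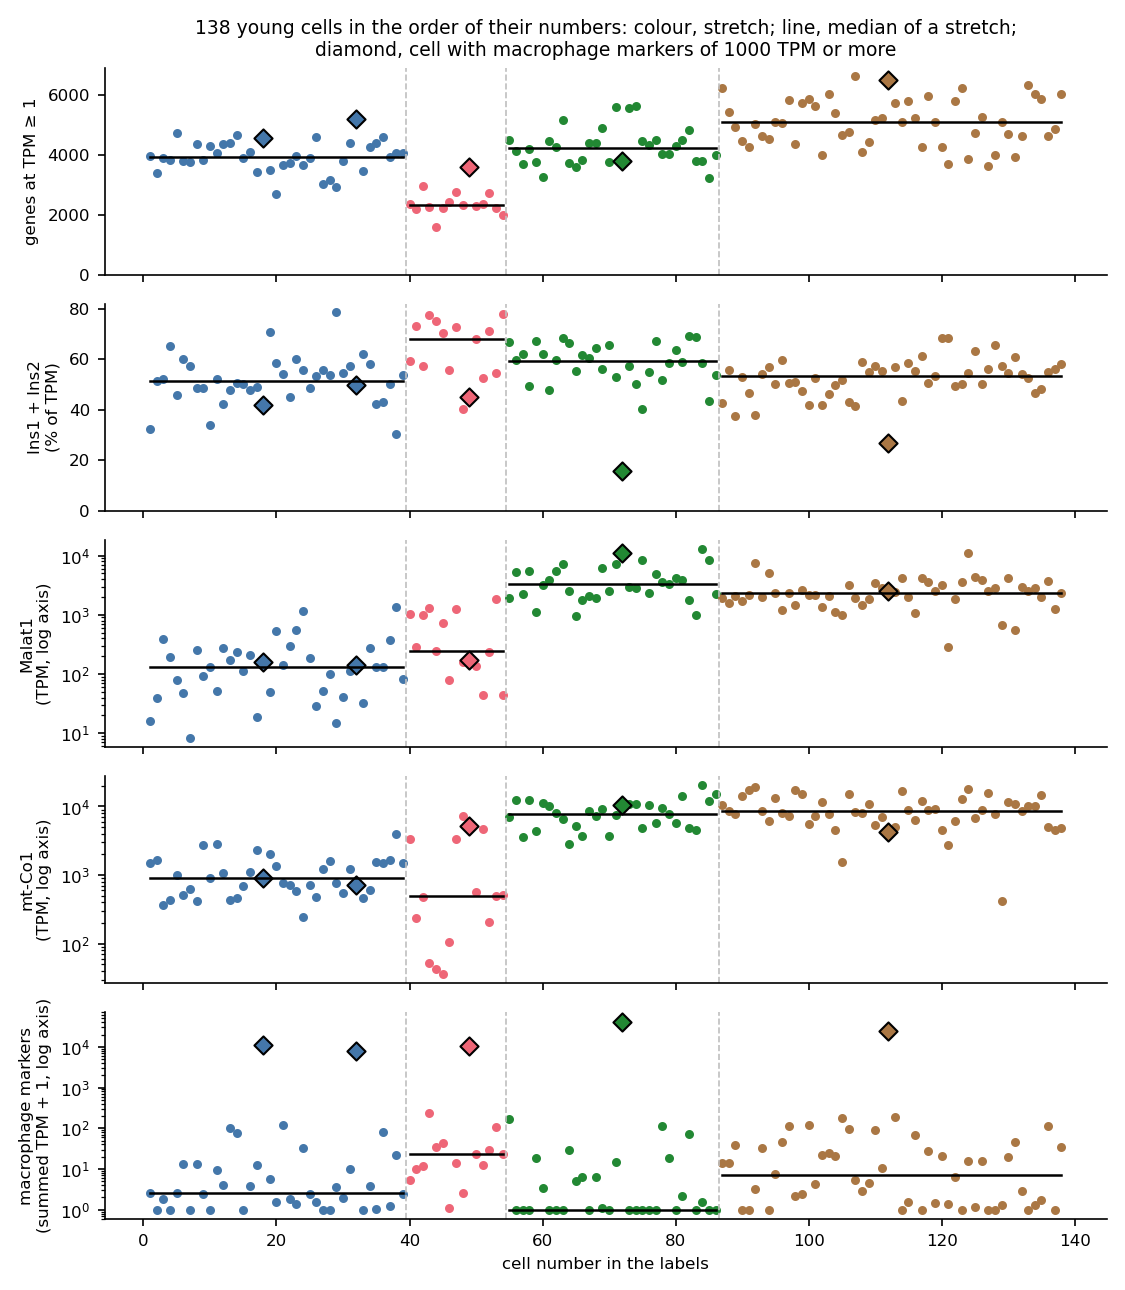
Number of detected genes, share of insulin transcripts, Malat1 and mt-Co1 levels and summed macrophage markers (y axes, with units on each panel) in each of the 138 young cells by its number in the labels (x axis). Points are cells, coloured by stretch, black lines are medians of stretches and diamonds mark the 5 macrophage-transcript cells. Detected genes are lowest in cells 40 to 54, and Malat1 steps up at cell 55.

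A few transcripts filled most of each cell's library. The 10 genes with the highest mean TPM held 70.5% ± 8.61 (SD over 138 cells) of all TPM. Ins2 alone averaged 495521 TPM, with a lowest value of 138682, a median of 493356 and a highest of 736904. Iapp followed with a mean of 70065 TPM (median 68935, range 1227 to 163074), and Ins1 with 49803 TPM (median 51548, range 8391 to 99586). The lowest Ins2 and the lowest Iapp values were both in cell 72, the cell with the most macrophage transcripts. Insulin transcripts of both genes together held a median of 54.5% of a cell's TPM, from 15.7 to 78.7%. The median Ins2 level was thus far above that of Ins1 in the same cells, and the 2 ranges did not overlap.

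Below the hormones came the mitochondrial genome. Of the 20 most abundant genes with proper symbols, 12 were mitochondrial, led by the cytochrome oxidase subunits mt-Co3 (mean 24955 TPM) and mt-Co2 (14380 TPM) and by cytochrome b, mt-Cytb (11843 TPM). The 13 mitochondrial protein-coding genes held a median of 8.53% of a cell's TPM, ranging from 1.17 to 28.3%. The nuclear genes of this top group other than the hormones were Ubb, a polyubiquitin gene (mean 4277 TPM), Ftl1, encoding the light chain of the iron store ferritin (2444 TPM), Resp18, a protein of endocrine secretory granules (2433 TPM), Malat1 (2089 TPM) and the ribosomal protein gene Rpl41 (2048 TPM). Ftl1 was highest in cell 112, a macrophage-transcript cell, at 23490 TPM against a median of 1681 TPM.

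**Figure D2:**
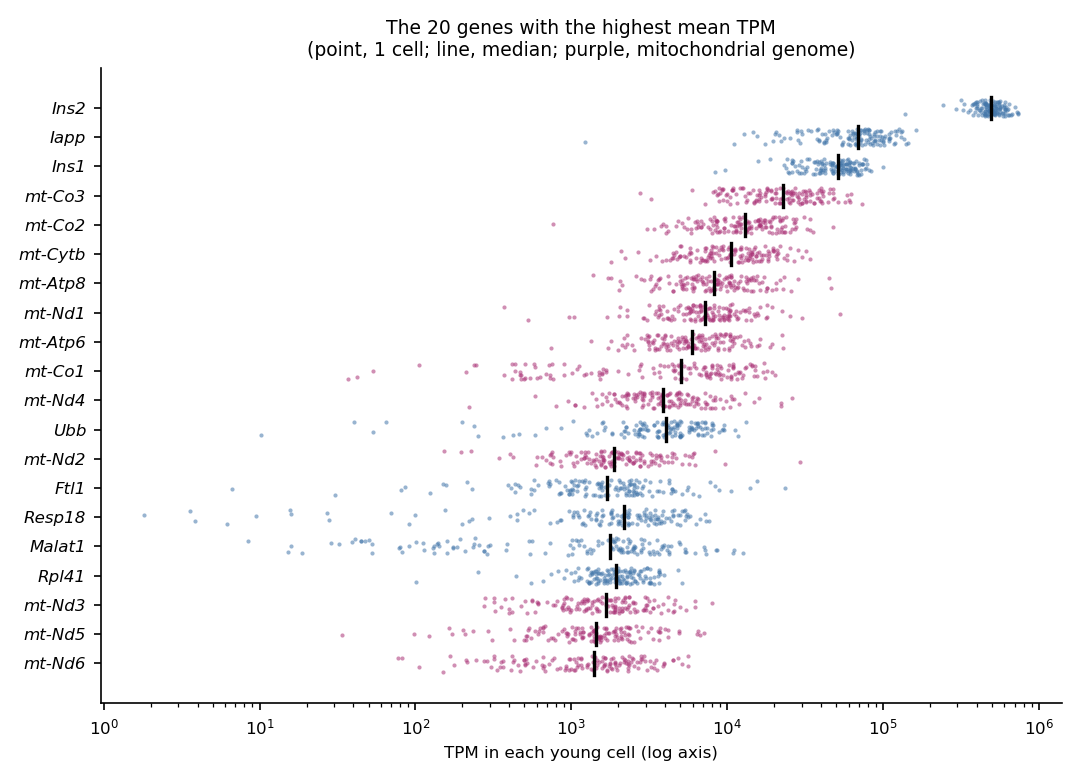
TPM of the 20 genes with the highest mean (y axis) in each of 138 young cells (x axis, log scale). Points are cells, black lines are medians and purple marks genes of the mitochondrial genome. Ins2 stays within 138682 to 736904 TPM while Malat1 runs from 8.44 to 12657 TPM and mt-Co1 from 36.8 to 20197 TPM.

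Granule genes were the next layer. Scg2 and Chga, which encode granins that help build secretory granules, averaged 1589 and 1233 TPM and were detected in all 138 cells. Cpe, which trims prohormones, averaged 1426 TPM, and Pcsk2, a proinsulin convertase, 467 TPM, each in all cells. Pcsk1, the other proinsulin convertase, had a lower mean of 124 TPM and was detected in 126 cells. Slc30a8, the zinc transporter of insulin granules, averaged 555 TPM in all cells, and G6pc2, a glucose-6-phosphatase of islets, 1093 TPM in all cells.

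Regulators were far lower. Of 15 beta-cell transcription factors, 10 had a mean of 10 TPM or above. Isl1 had the highest mean, 64.9 TPM, and was detected in 117 cells, and Pax6, at 34.2 TPM, was the most widely detected, in 132 cells. Pdx1, a master regulator of beta cells, averaged 7.44 TPM and was detected in 60 of 138 cells (43.5%, exact 95% interval 35.1 to 52.2%). Mafa, an activator of insulin transcription, was at TPM 1 or above in 1 cell. Low entries in this table need not mean absent transcripts. Gapdh, a glycolytic gene with many near-identical pseudogene copies among which reads can be split, was listed at a mean of only 8.06 TPM.

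Detection ranged from universal to single-cell. Of 44448 rows, 105 were detected in every cell and together held 78.1% of all TPM. They comprised 67 nuclear protein-coding genes, among them 22 for cytosolic ribosomal proteins, 15 genes of the mitochondrial genome, 20 pseudogenes and 3 others. Beside the hormones and granule genes already named, the universal genes included Hspa5 (BiP, the main ER chaperone; lowest 11.0, median 628, highest 3083 TPM), Hsp90b1 (the ER form of Hsp90; 17.1, 653 and 2903 TPM) and Ccnd2 (cyclin D2, a cyclin of adult beta cells; 6.59, 168 and 697 TPM). At the other end, 6725 rows were detected in 1 to 6 cells and held 0.280% of all TPM, 2924 of them in a single cell, and 25147 rows were detected in none.

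A rarely detected gene could still be very high where it was found. Among genes with proper symbols seen in at most 6 cells, the highest mean belonged to Tsx, an X-linked gene best known from testis, which was detected in 6 cells and had 90.3% of its summed TPM, 4515 TPM, in cell 53. Pcp4, a calmodulin-binding peptide gene, had 96.9% in cell 46, at 2588 TPM. Fabp7, a fatty acid binding protein of glia, had 99.9% in cell 75, the cell with the high Sparc level named above, at 2493 TPM. Of the 10 genes chosen this way, 5 (Laptm5, Cd53, Lgals9, Fcgr3 and Aif1) are immune-cell genes whose highest cell was 72 or 112. Cell division transcripts were equally rare. Mki67, Top2a, Cdk1, Birc5 and Cenpf, all needed in dividing cells, were detected in 1 to 3 cells each, and each was highest in cell 122, with Top2a at 404 TPM. Pbk, a mitotic kinase gene detected in 2 cells, was also highest there, at 1297 TPM. Cells 75 and 122 were singled out after these values were seen.

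Genes whose silence is typical of beta cells had low means. Of 15 such genes, among them Slc16a1, a monocarboxylate transporter, and Hk1, a low-Km hexokinase, none reached a mean of 10 TPM and the median member was detected in 2 cells. Ldha, lactate dehydrogenase A, had the highest mean, 6.80 TPM, of which 77.2% lay in the macrophage-transcript cell 112. Of 12 genes of immature or progenitor endocrine cells, 7 were detected in any cell, and their summed level had a median of 1.83 TPM and a highest value of 1441 TPM. The 2 with a mean of 10 TPM or above both had a CV past 1.5 times that of genes of their level, the ratio described in the next paragraph. Cd81, a membrane tetraspanin gene, averaged 43.7 TPM in 61 cells, with a ratio of 1.58 that was 1.06 without the macrophage-transcript cells. Npy, encoding neuropeptide Y, averaged 13.7 TPM in 4 cells, with 68.5% of its summed TPM in cell 117 and a ratio of 2.71. Neurog3, the endocrine progenitor factor, was detected in 1 cell, and Aldh1a3 in none.

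Variation over cells followed the mean level closely. The coefficient of variation (CV, the SD over cells divided by the mean) had a median of 4.71 among 3073 genes with means of 1 to 3 TPM, 2.69 at 10 to 30 TPM, 1.28 at 100 to 300 TPM and 0.72 among 31 genes at 1000 TPM or above. A gene with a mean of 1 to 3 TPM was detected in a median of 16 cells and had 30.5% of its summed TPM in its highest cell. To find genes that vary more or less than others of their level, the CV of each of 4215 genes with a mean of 10 TPM or above was divided by the median CV of the 200 genes nearest in mean. Of these genes, 506 (12.0%) had a ratio of 1.5 or above and 527 (12.5%) a ratio of 1/1.5 or below. These are shares past a fixed ratio, without a test.

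**Figure D3:**
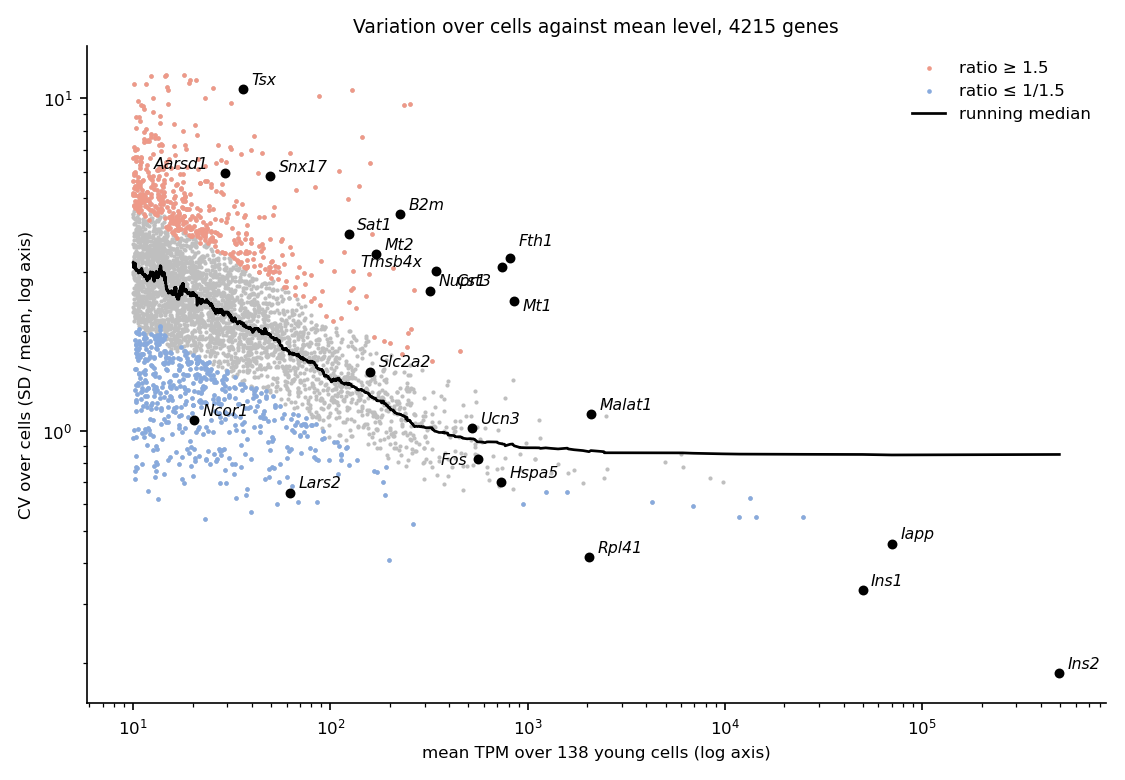
CV over 138 young cells (y axis, log scale) against mean TPM (x axis, log scale) of 4215 genes with a mean of 10 TPM or above. Red and blue points are genes with a CV at least 1.5 times above or below that of genes of their level, the black line is a running median and black points are named genes. Fth1, Cst3 and Nupr1 lie above the line and Ins2, Ins1 and Rpl41 below it.

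Many of the most variable genes owed their rank to the macrophage-transcript cells. Fth1, the heavy chain of ferritin, had a CV ratio of 3.34 with all cells and 1.02 without those 5. Cst3, the protease inhibitor cystatin C, went from 3.15 to 1.39, the lysosomal protease gene Ctsb from 3.09 to 1.05, Tmsb4x, an actin-binding thymosin, from 3.04 to 0.81, and B2m, the light chain of MHC class I, from 4.01 to 1.13. In 109 of the 506 more variable genes the highest cell was a macrophage-transcript cell. This also held for 73 of the 527 less variable genes, and the share over all genes was not taken. Without them 434 of 4125 genes passed the same ratio, of which 389 were among the 506.

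Nupr1 stayed as variable without those cells, while for the other genes named next any ratio given is with all cells. Nupr1, a small nuclear protein induced by amino acid shortage and ER stress, had a ratio of 2.58 with all cells and 2.74 without the 5. It was below TPM 1 in 60 cells, had a median of 1.69 TPM and reached 4633 TPM in cell 1. The metallothioneins Mt1 and Mt2, which bind zinc and copper, had ratios of 2.49 and 2.75. Mt1 ran from 0 to 17317 TPM with a median of 270 TPM, and Mt2 from 0 to 5101 TPM with a median of 17.6 TPM. Sat1, an enzyme of polyamine breakdown, had a ratio of 2.84 (median 1.16, highest 4352 TPM) and Id2, an inhibitor of DNA-binding factors, 1.95 (median 1.52, highest 2402 TPM). For Nupr1, Sat1 and Id2 most values were low and a few were high. For Snx17, Coq10a and Aarsd1 a single cell held 48.7, 53.9 and 49.9% of the summed TPM.

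Genes with even levels included the hormones. Ins2 had a CV of 0.19 and a ratio of 0.19, Ins1 a ratio of 0.34 and Iapp 0.46. The comparison is loose at this end, since the 200 genes nearest to Ins2 reach down to a mean of 224 TPM and a gene near the cell's fixed total of 1000000 TPM has little room to vary upward. Ucn3 and Slc2a2 varied like other genes of their level, with ratios of 1.03 and 1.19. Among lower genes, Lars2, a mitochondrial leucyl-tRNA synthetase, had a ratio of 0.38 and was found in all 138 cells at 4.89 to 270 TPM. Ncor1 (a nuclear corepressor, 0.42), Ewsr1 and Rbm39 (RNA-binding proteins, 0.42 and 0.45), Srrm2 (a splicing factor, 0.42) and the noncoding RNA Meg3 (0.41) were also in this group. Of the 527 less variable genes, 206 were pseudogenes, which can share the reads of a parent gene.

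By gene list, variation relative to level was mostly ordinary. The median ratio over all genes was 1.00. Of 18 ER chaperone and folding genes, none passed 1.5 and 3 were at 1/1.5 or below, with a median of 0.88. The beta-cell transcription factors with a mean of 10 TPM or above had a median of 0.77, with 3 of 10 at or below 1/1.5, namely Pax6 at 0.57, Nkx2-2 at 0.59 and Insm1 at 0.62. The 10 exocytosis genes had a median of 0.83. Lysosomal genes had a median of 1.19, with 5 of 15 past 1.5. Of these, Ctsb, Ctsd and Ctsz had ratios of 1.05, 1.02 and 1.42 without the macrophage-transcript cells, and Cst3 is given above.

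Genes that vary together were sought next. Pearson's r was computed over the 138 cells on log2(TPM + 1) after the mean of each stretch was removed, for 2392 genes with a mean of 10 TPM or above that were detected in at least 50% of cells. The cells share a library design, an unknown depth and a fixed total, so r is a description. Over 2859636 pairs the median r was 0.03, with a 1st to 99th percentile range of -0.18 to 0.25. An r of 0.5 or above was reached by 666 pairs (0.0233%). Of these, 584 involved a pseudogene, gene model or other RNA and 65 joined genes of the mitochondrial genome. That left 17 pairs of nuclear genes with proper symbols.

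Of those 17 pairs, 6 join near-identical or adjacent copies among which reads can be split, such as H2ac18 with H2ac19 (r = 0.89), Rnaset2a with Rnaset2b (0.86) and Rpl37 with its retrocopy Rpl37rt (0.71). Mt1 and Mt2, neighbours on chromosome 8, had r = 0.73, with 0.80, 0.52, 0.72 and 0.77 in the 4 stretches. Ins1 and Ins2 had r = 0.66, with 0.75, 0.41, 0.78 and 0.54. How reads that match both insulin genes were counted is not given. Ppy and Pyy, adjacent hormone genes, had r = 0.57, but only 0.09 in cells 1 to 39. Among genes without a shared origin, Uqcrb and Ndufb11, which encode subunits of respiratory complexes III and I, had r = 0.60, Iapp and Uqcrb 0.55, the granule membrane gene Cd63 and Ftl1 0.54, and Slc25a5, the mitochondrial ADP/ATP carrier, and Ssr3, a translocon subunit, 0.52. The pair of Actb and Fth1 went from 0.50 to 0.31 without the macrophage-transcript cells.

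The hormone genes did not move as a block. Ins2 and Iapp had r = 0.21 with all cells and -0.26 without the macrophage-transcript cells, among which cell 72 had the lowest value of both genes. By stretch it was -0.04, -0.35, 0.73 and -0.25, and the positive value belongs to cells 55 to 86, the stretch of cell 72. Iapp and Ucn3 had r = 0.30 (0.25 without those cells), and Iapp and Slc2a2 0.18 (0.06 without). Apart from Ins2, the genes nearest to Ins1 were Spock2, a matrix proteoglycan gene (0.38), Fkbp11, an ER folding enzyme (0.35), and Cnpy2, an ER protein (0.32), and those farthest were mt-Atp6 (-0.39) and mt-Atp8 (-0.39), subunits of ATP synthase. Ins2 was lowest against Ifngr1, an interferon receptor gene (-0.50, and -0.21 without the macrophage-transcript cells), and Eef1a1, a translation elongation factor (-0.47 and -0.42). The genes nearest to Iapp were Uqcrb and Ndufb11 (0.49), and the farthest was Lars2 (-0.42). Part of any negative r with the hormones is built into a fixed total.

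Of 22 lists with at least 5 genes that were detected in 25% of cells or more and had a mean of 10 TPM or above, 14 had a median r over their pairs of 0.1 or above, against 0.03 over all pairs of 3819 such genes. Without the macrophage-transcript cells this held for 9 lists, and with the number of detected genes regressed out within stretches for 7. In every alternative in which their median could be computed, 6 lists stayed at 0.1 or above: the mitochondrial coding genes, the integrated stress response, the ER translocon, immediate early genes, ER chaperones and cholesterol synthesis. The beta-cell transcription factors had a median r of 0.02 and exocytosis genes 0.03, near the value over all pairs. Since the median over all pairs is above 0, pairs above 0 outnumber pairs below 0 among all genes as well. Their share over all genes was not counted, so counts of pairs above or below 0 in the lists are a description.

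**Figure D4:**
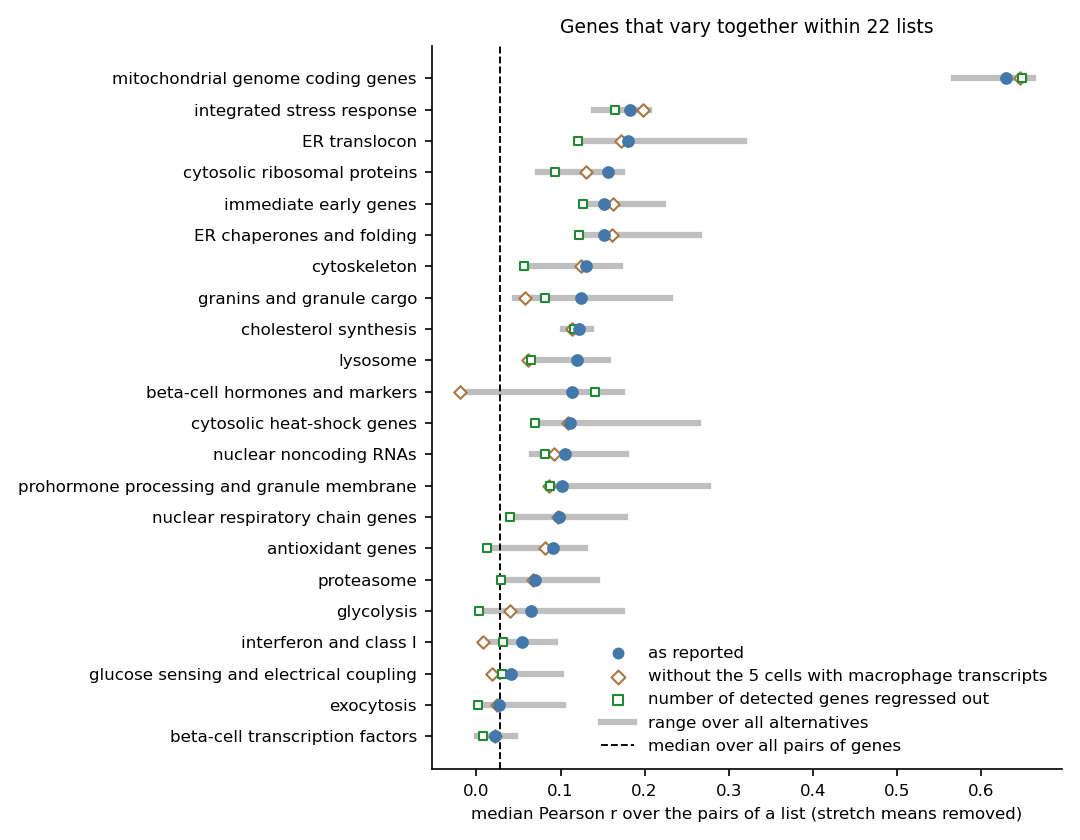
Median Pearson r over the pairs of each of 22 gene lists (x axis) over 138 young cells. Blue points are the values as reported, diamonds leave out the 5 macrophage-transcript cells, squares regress out the number of detected genes, grey bars span all alternatives and the dashed line is the median over all pairs of genes. The mitochondrial coding genes stand at 0.63 and the beta-cell transcription factors at 0.02.

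The mitochondrial coding genes were the tightest list. All 78 pairs of the 13 genes had r above 0, from 0.34 to 0.96, with a median of 0.63. The highest was mt-Atp6 with mt-Atp8 (0.96), whose reading frames overlap on 1 transcript, followed by mt-Co3 with mt-Atp6 (0.90). Between them and 32 nuclear genes of the respiratory chain the median r was -0.02, with 253 of 416 pairs below 0, while the 496 pairs within the nuclear list had a median r of 0.10. The mitochondrial list was mostly below 0 against the ER chaperones, with 187 of 234 pairs below 0 and a median of -0.09. Against the hormone markers 41 of 65 pairs were below 0. Other lists were alike: 132 of 156 pairs with translocon genes and 131 of 169 with immediate early genes were below 0. With the cytosolic heat-shock genes 44 of 104 were below 0, with a median of 0.03. The mitochondrial genes vary together, so these pairs are not independent. Part of any negative r with them is built into the fixed total.

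An upstream element was searched for in the ER chaperone list. The ER stress response element (CCAAT and CCACG with any 9 bases between them), through which the factors ATF6 and XBP1 are known to switch on folding genes, was searched on both strands in the 250 bases before each RefSeq start. It was found in 7 of the 16 list members that have a window (Calr, Canx, Creld2, Dnajc3, Hsp90b1, Hspa5 and Pdia6) and in 0.130% of all 27025 genes with one. The 250 bases before the start of 4 of these genes, from RefSeq on GRCm38.p6, are printed 5′ to 3′ on the gene's strand to show the element found in these 7 members, with the element in capitals, read as its reverse complement where the match is on the other strand. They lie at chr2:34771840-34772089 (plus strand, Hspa5), chr10:86705445-86705694 (minus strand, Hsp90b1), chr8:84846932-84847181 (minus strand, Calr) and chr14:118937682-118937931 (plus strand, Dnajc3). The element stands 65 bases before the start in Hspa5, at 212 and 107 in Hsp90b1, at 162 in Calr and at 105 in Dnajc3. The element is known from folding genes, so its share in this list beside that of all genes is a description and no finding of these data. A match of letters is no evidence of binding.
Hspa5: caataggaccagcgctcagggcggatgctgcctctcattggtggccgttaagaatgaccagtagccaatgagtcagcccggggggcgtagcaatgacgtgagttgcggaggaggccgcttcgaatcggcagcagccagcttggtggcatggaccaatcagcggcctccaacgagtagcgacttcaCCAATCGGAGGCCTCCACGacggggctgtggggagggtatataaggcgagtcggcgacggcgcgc
Hsp90b1: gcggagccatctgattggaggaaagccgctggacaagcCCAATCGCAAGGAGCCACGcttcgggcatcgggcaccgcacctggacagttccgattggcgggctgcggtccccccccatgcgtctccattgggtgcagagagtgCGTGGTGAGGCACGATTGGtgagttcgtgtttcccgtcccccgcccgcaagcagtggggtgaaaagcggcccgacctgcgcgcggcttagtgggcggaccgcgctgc
Calr: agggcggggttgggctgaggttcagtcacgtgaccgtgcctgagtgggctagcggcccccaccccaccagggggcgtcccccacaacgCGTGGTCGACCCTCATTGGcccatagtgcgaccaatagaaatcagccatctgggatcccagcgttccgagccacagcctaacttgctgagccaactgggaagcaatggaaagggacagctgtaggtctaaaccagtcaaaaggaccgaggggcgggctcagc
Dnajc3: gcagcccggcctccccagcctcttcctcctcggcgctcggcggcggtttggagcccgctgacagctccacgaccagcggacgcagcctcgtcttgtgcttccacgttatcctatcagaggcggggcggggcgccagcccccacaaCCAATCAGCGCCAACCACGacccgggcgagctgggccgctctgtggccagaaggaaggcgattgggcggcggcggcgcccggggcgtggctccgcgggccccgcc

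Folding genes varied together over the young cells. Of 153 pairs of the 18 members, 143 had r above 0, with a median of 0.15 against 0.03 over all pairs of genes. Calr, the calcium-binding chaperone calreticulin, and Manf, a secreted ER stress factor, had the highest r, 0.43, with 0.37, 0.66, 0.46 and 0.26 in the 4 stretches. P4hb, a disulfide isomerase, and Dnajb9, a BiP cochaperone, had r = 0.39, and Hsp90b1 and Dnajc3, another BiP cochaperone, 0.34. Hspa5 had r = 0.33 with Hyou1, an ER chaperone of the Hsp70 class, but -0.29 in cells 40 to 54, and 0.33 with P4hb. Pairs in which both genes hold the element had a median r of 0.19 (21 pairs, 0.00 to 0.34), mixed pairs 0.14 (63 pairs) and pairs in which neither holds it 0.12 (36 pairs), and these ranges overlap. The 12 translocon genes had a median r of 0.18, with 63 of 66 pairs above 0, led by Ssr2 with Ssr4 (0.39), subunits of the translocon-associated complex. Chaperone and translocon genes had a median r of 0.13 with each other, with 30 of 216 pairs below 0. Other lists came near that value. The translocon genes had a median r of 0.12 with the prohormone processing list and 0.11 with the cytoskeleton list, and the chaperones 0.11 and 0.10. With the beta-cell transcription factors the medians were 0.01 and -0.004. Values between lists were not taken with detected genes regressed out.

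A second stress program was compared in the same way. The integrated stress response is the program in which the factor ATF4, made when translation is slowed, switches on genes for amino acid supply and stress signalling. Of its 14 list members, 13 were detected in any cell and 8 entered the correlations. Those 8 had a median r of 0.18, with 24 of 28 pairs above 0. Nupr1 and Ddit3, which encodes the stress factor CHOP, had r = 0.39, Chac1, a glutathione-degrading enzyme, and Vldlr, a lipoprotein receptor, 0.37, and Nupr1 and Vldlr 0.35. These values were 0.42, 0.39 and 0.34 without the macrophage-transcript cells. By stretch they were uneven: Nupr1 with Ddit3 had 0.50, -0.11, 0.26 and 0.44, Chac1 with Vldlr 0.39, 0.15, 0.12 and 0.53, and Nupr1 with Vldlr 0.51, -0.22, 0.34 and 0.33, so both Nupr1 pairs were below 0 in cells 40 to 54. Chac1 was detected in 64 cells (median 0.69, highest 522 TPM), Vldlr in 72 cells (median 1.44, highest 168 TPM) and Ddit3 in 93 cells (median 10.7, highest 703 TPM).

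The core of the element that ATF4 and its partners are known to read (TTGCATCA), searched on both strands in the same windows, was found in 5 of the 14 list members (Chac1, Fgf21, Nupr1, Slc7a11 and Vldlr) and in 0.918% of all genes. The list holds genes placed in this program beforehand, so its share is again a description. Fgf21 was detected in no cell and Slc7a11 in 4. The remaining 3, all of which appear in the pairs just given, have their windows printed in the same way, with the core in capitals. They lie at chr7:126625471-126625720 (minus strand, Nupr1), chr2:119350992-119351241 (plus strand, Chac1) and chr19:27216770-27217019 (plus strand, Vldlr), and the core stands 110, 193 and 200 bases before the start.
Nupr1: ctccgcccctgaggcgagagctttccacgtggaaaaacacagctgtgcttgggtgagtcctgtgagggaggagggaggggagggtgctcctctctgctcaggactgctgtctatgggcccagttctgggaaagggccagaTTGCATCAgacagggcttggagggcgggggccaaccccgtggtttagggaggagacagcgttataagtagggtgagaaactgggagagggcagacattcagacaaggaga
Chac1: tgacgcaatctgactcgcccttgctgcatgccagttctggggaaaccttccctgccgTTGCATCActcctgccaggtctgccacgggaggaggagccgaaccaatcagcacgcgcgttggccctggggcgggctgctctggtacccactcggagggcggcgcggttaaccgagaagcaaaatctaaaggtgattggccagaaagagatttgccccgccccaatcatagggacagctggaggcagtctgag
Vldlr: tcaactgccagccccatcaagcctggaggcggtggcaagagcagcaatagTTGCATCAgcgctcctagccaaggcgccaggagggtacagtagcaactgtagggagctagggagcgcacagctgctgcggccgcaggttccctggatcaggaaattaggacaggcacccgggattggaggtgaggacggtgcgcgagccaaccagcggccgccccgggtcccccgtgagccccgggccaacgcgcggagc

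The 3 pairs among Nupr1, Chac1 and Vldlr had r of 0.31 to 0.37, the 15 pairs of one of them with another list member a median of 0.20 and the 10 pairs without any of them 0.10, where the highest was 0.25. The mixed pairs reached 0.39, so the groups of pairs overlap. Between the stress response list and the chaperones 75 of 144 pairs were below 0, and Nupr1 and Hspa5 had r = -0.24. Between the stress response list and the mitochondrial coding genes 19 of 104 pairs were below 0, with a median r of 0.09.

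Immediate early genes, which neurons and endocrine cells switch on within minutes of calcium entry or of handling, were the next list. Of 22 listed genes 13 entered the correlations, with a median r of 0.15 and 74 of 78 pairs above 0. Fos was detected in 135 cells (lowest 0.31, median 448, highest 2629 TPM) and Egr1 in 132 (median 189, highest 1740 TPM). Fos and Fosb had r = 0.43 (0.00 in cells 40 to 54 and 0.48 to 0.52 in the other stretches), Fos and Egr1 0.35, Fos and Btg2, an antiproliferative gene, 0.35, and Fosb and Egr1 0.34. Several of these genes were highest in cells 55 to 86, where the heat-shock genes were also high. Fos averaged 961 TPM there against 429 to 438 TPM in the other stretches, and Jun 145 TPM against 25.1 TPM or less. Against the stress response genes the median r was -0.02, with 60 of 104 pairs below 0 and a range from -0.30 (Nupr1 with Ier2) to 0.19 (Atf4 with Fosb). Another element, CRE (TGACGTCA), was searched in the same windows. It was found in 3 of 19 immediate early genes with a window (Btg2, Dusp1 and Maff) and in 1.77% of all genes. The 1 pair with CRE in both had r = 0.16, mixed pairs a median of 0.17 and pairs without it 0.16. The metal response element core (TGCACNC or TGCGCNC, N being any base) was found in Mt1 and Mt2 and in 23.8% of all genes.

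**Figure D5:**
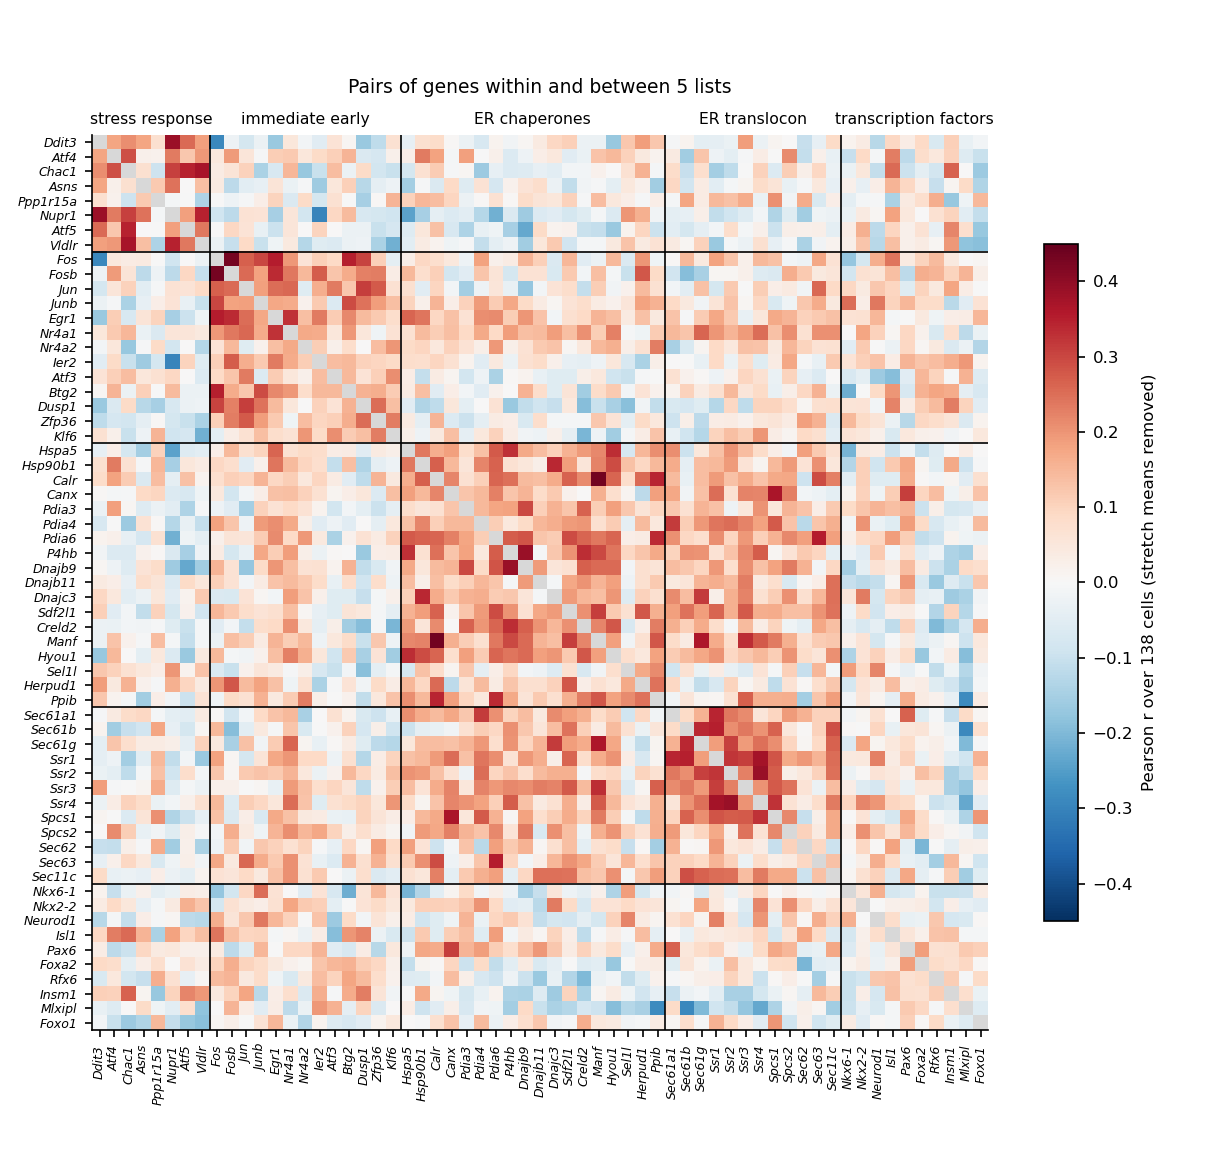
Pearson r of each pair of genes over 138 young cells (colour scale) within and between 5 lists, with genes on both axes and lists parted by black lines. Red squares are positive and blue squares negative values, grey marks the diagonal. The stress response, immediate early and ER blocks are red, the transcription factor block is pale, and Ddit3 with Fos (-0.29) is among the bluest squares.

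Glucose sensing and secretion genes were spread over a wide range of levels and varied little together. Abcc8 and Kcnj11, the subunits of the potassium channel that closes when ATP rises, averaged 62.9 TPM in 128 cells and 14.1 TPM in 85 cells. Glp1r, the receptor of the gut hormone GLP-1, averaged 11.7 TPM in 48 cells. The 9 members in the correlations had a median r of 0.04, and the highest pair was Slc2a2 with G6pc2 (0.24, and 0.17 without the macrophage-transcript cells). Among secretion genes, Snap25, a membrane fusion protein, averaged 113 TPM in 109 cells and Syt13, a synaptotagmin, 111 TPM in 136 cells. The highest exocytosis pair, Snap25 with Syt4, had r = 0.23.

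Among granule genes the highest pair was Scg5 with Nucb2. Scg5, the chaperone of the convertase Pcsk2, and Nucb2, a calcium-binding granule protein, had r = 0.39, with 0.50 and 0.73 in the first 2 stretches and 0.10 and 0.17 in the last 2. Pcsk1 and Cpe, which act in sequence on proinsulin, had r = 0.33, with 0.29 to 0.37 in all 4 stretches. The granin list had a median r of 0.12, which was 0.06 without the macrophage-transcript cells. Actb and Actg1, the cytoplasmic actins, had r = 0.41, and the antioxidant genes Gpx4 and Prdx1 0.31, while the antioxidant list as a whole had a median r of 0.09.

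Cholesterol synthesis genes had a median r of 0.12 over 9 members. Hmgcs1, an enzyme of the pathway, and Insig1, a feedback regulator of it, had r = 0.29, with 0.37, -0.10, 0.32 and 0.33 in the stretches. The 38 ribosomal protein genes had a median r of 0.16, with 656 of 703 pairs above 0, led by Rps18 with Rps19 (0.53). With detected genes regressed out their median was 0.09, and reads shared with pseudogene copies bear on their levels.

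Grouping all 2392 genes by correlation gave 37 modules of 5 genes or more (57 without cells 1 to 39), but 26 of them held no majority of nuclear genes with proper symbols. The largest, of 18 genes, was the mitochondrial genome, and the next were a gene with its pseudogenes, such as Rps23, Rpl9 and Ppia. With proper symbols only, 5 modules remained. They were led by mt-Atp6 (13 genes), by Ywhae, a 14-3-3 protein gene, with Atp6v0c, Slc25a5 and Ssr3 (7 genes), by Rps18 with Rpl32 and Rpl35 (7 genes), by Uqcrb with Iapp, Tmem258 and Nme1 (7 genes), and by Actb with Fth1 (5 genes). The module with Iapp had a mean r of 0.36 and also held Ndufb11, Selenof and Tceal9, small proteins of the respiratory chain and ER among them. Modules were chosen by these same correlations, so their r values are a description.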

How the data were processed

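The authors deposited 1 table of TPM values for male mouse islet cells captured on a Fluidigm C1, with SMARTer cDNA and Nextera XT libraries per the labels' protocols. The submitters' processing notes list CASAVA 1.8.2, FastQC and the build GRCm38 (mm10). The aligner, counter, annotation and strand handling: not given in the sources used here. Of 44448 rows (NCBI Gene numbers), 39725 matched a RefSeq symbol (GRCm38.p6). Every one of the 138 columns labelled Young was kept, with no doublet calling, and none duplicated another.

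The members, gene lists and rules were chosen with earlier results of these data known. Stretches of cell numbers are least-squares change points of at least 8 cells. CV ratios used the 200 genes nearest in mean above a floor of 10 TPM. Correlations used log2(TPM + 1) less stretch means, and modules are average-linkage clusters parted at r = 0.3. Cells summing to 1000 TPM or more of macrophage markers were set apart after the data were seen. Named genes were, among proper symbols, the 20 highest means, the 15 highest and 15 lowest CV ratios, the 10 highest means among genes in at most 6 cells, leading module genes, the 3 highest and lowest CV ratios of each list, markers with a mean of at least 10 TPM and the genes nearest to each beta-cell marker. Other list members, the highest pairs and the farthest genes were named after their values were seen. The steps were tested on simulated data. Python 3.11.15, numpy 2.4.6, pandas 2.3.3, scipy 1.17.1 and matplotlib 3.10.9 were used.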

Additional observations from a re-analysis of the deposited data

How the results depend on the processing

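All young cells are 1 sample without animals, so no result has a test and the alternatives show only how sizes move. No paired analysis was possible because the labels give a single young sample and its cells carry no replicate numbers shared with another group. The median number of genes detected per cell was 6187 with detection above TPM 0 and 2892 at TPM 5, and the genes detected in every young cell numbered 175 and 48. Genes more variable than others of their level numbered 3252 with no minimum mean, 78 at a mean of 50 TPM or above, 232 with the CV taken within stretches and 1087 with TPM rescaled without insulin and mitochondrial genes, where more genes reach the minimum mean. Genes less variable numbered 4997, 84 and 1055 with no minimum, at 50 TPM and rescaled, and 351 with proper symbols only. Gene pairs that vary together numbered 1263 rescaled, 1285 without removal of stretch means and 79 with proper symbols only. Gene modules numbered 57 without cells 1 to 39 (35 to 57 over the stretches left out), 56 rescaled, 69 without removal of stretch means, 24 when parted at r = 0.4 and 5 with proper symbols only. Lists with a median r of 0.1 or above numbered 8 rescaled, 7 with detected genes regressed out and 9 without the macrophage-transcript cells. The last setting, the restriction to proper symbols and the 2-stretch split were chosen after seeing the data. The share of TPM of the 10 most abundant genes and the count of genes in 1 to 6 cells moved in no alternative by more than the spread over cells or by 1.5 times. The cause of these moves was not tested. The depth of the libraries is not known, so a TPM near 1 cannot be told from a single read.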
